A study of Mus musculus with 12 samples.

Results

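The genes of the MHC class II pathway and its costimulatory partners were examined as a set of 10: H2-Aa, H2-Ab1, H2-Eb1, H2-DMa, H2-Oa, Cd74, Ciita, Cd86, Cd80 and Cd40. They were chosen by name, and every probe set that the array annotation assigned to 1 of them alone was taken, which gave 24 of 45101 probe sets and 10 of 18193 measured genes. RNA came from type II alveolar cells of mouse lung, the epithelial cells that make surfactant, kept for 7 days on collagen-coated plates in a medium for bronchial epithelium that held keratinocyte growth factor but no hydrocortisone. The medium was renewed every 3 days and the cells received no other treatment. The 4 genotypes were Gna11 ko, Gnaq/Gna11 double ko, Gna12 ko and Gna12/Gna13 double ko, each on 3 arrays, and the stated aim was to set single against double knockouts. Every group lacked at least 1 G protein alpha subunit gene, so no array came from wild-type cells. The sources used here do not give the strain, age or sex of the mice, or say whether a deletion was limited to certain cells. Nothing in the labels ties the 3 samples of a group to separate animals or cultures, so the p-values measure the spread among samples, whatever its source. The Y-linked gene Eif2s3y read 3.56 on Gna11 replicate 2 against 7.11 and 7.00 on the other arrays of that genotype, 3.30 on Gna12 replicate 2 against 6.91 and 7.37, and 3.07 on Gna12/Gna13 replicate 2 against 7.37 and 7.35, so the arrays of these groups did not all share 1 source. In Gnaq/Gna11 cells it was low on all 3 arrays, at 3.32 to 3.54, and there a purely technical spread was not tested.

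Class II molecules are pairs of an alpha and a beta chain that carry peptides from endosomes to the cell surface and show them to CD4+ T cells. The invariant chain Cd74 guides new pairs to endosomes, H2-DM exchanges its remnant for a peptide, H2-O restrains H2-DM, and Ciita is the coactivator that switches the whole set on. Cd80 and Cd86 give the second signal to T cells through Cd28, and Cd40 is the receptor through which T cells activate the presenting cell. Dendritic cells, macrophages and B cells are the usual carriers of class II. Type II alveolar cells also make class II, while they are not known for strong Cd80 or Cd86, so these genes alone do not tell an epithelial from a leukocyte source.

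Class II promoters are recognised through an X box, bound by the RFX complex, followed by a Y box, bound by NF-Y, on which Ciita acts. The RefSeq promoter table of build GRCm38.p6 held 5 of the 10 genes, H2-Aa, H2-Eb1, H2-Oa, H2-DMa and Cd80. H2-Ab1, Cd74, Ciita, Cd86 and Cd40 had no entry. Each window covered 250 bases before to 50 after the start. The form CNNGCAAC followed after 25 to 45 bases, counted from start to start, by GATTGG on the same strand was searched on both strands. The 2 motifs were searched as separate letters and cannot overlap at this distance. This form was set after these sequences had been seen. It was present in 3 of the 5 genes, H2-Aa, H2-Eb1 and H2-Oa, and in 35 of 32851 promoters (0.107%), while GATTGG alone was present in 16.1% and CNNGCAAC alone in 11.2%. Of the other class II pathway genes listed, 12 had a window and H2-Ob and H2-Eb2 held the pair. The 150 bases before the start are shown for these 3 genes and for H2-Eb2, a class II beta chain gene beside H2-Eb1, because they let the shared pair be seen beside genes that differed in expression. They are chr17:34287824-34287973 on the minus strand (H2-Aa), and chr17:34305717-34305866 (H2-Eb1), chr17:34092229-34092378 (H2-Oa) and chr17:34325525-34325674 (H2-Eb2) on the plus strand. Each runs 5′ to 3′ and ends at the base before the start, with the pair in capitals.
H2-Aa: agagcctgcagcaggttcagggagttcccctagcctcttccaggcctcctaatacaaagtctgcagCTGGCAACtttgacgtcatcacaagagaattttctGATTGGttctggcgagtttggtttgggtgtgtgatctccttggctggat
H2-Eb1: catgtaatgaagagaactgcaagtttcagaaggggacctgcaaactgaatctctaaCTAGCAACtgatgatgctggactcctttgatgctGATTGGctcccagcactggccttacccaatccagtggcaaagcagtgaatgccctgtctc
H2-Oa: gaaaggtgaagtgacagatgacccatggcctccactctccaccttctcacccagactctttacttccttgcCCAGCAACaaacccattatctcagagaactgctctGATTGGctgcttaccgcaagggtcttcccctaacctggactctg
H2-Eb2: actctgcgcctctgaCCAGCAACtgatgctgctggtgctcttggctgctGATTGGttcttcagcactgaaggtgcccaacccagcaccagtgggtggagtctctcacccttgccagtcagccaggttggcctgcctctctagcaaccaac
The first motif began 84, 94, 79 and 135 bases before the start in H2-Aa, H2-Eb1, H2-Oa and H2-Eb2, and the second followed at a distance of 35, 34, 35 and 34 bases. A match is a description of letters and does not show binding.

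By group mean, 8 of the 10 genes were lowest in Gna11 cells, and for 4 of them, H2-Ab1, Cd74, H2-DMa and Cd86, the Gna11 arrays lay clear of all others. How many of all genes did either was not counted, so these 2 counts have no background beside them. Against Gna11 cells, 4 of the 10 genes rose in Gnaq/Gna11 cells (H2-Ab1, H2-Eb1, Cd74 and H2-DMa; 1.17% of all genes rose) and 5 rose in Gna12 cells (H2-Aa, H2-Ab1, Cd74, H2-DMa and Cd86; 1.74% of all genes rose), and none fell in either (0.676% and 1.08% of all genes fell). The rises lay between 0.42 and 1.83 on the log2 scale, where 1 is a doubling. None of the 10 changed between Gna12 and Gna12/Gna13 cells. Only H2-Eb1 passed between the double knockouts, where it was lower in Gna12/Gna13 cells (2.70% of all genes were lower, and 6.10% changed in either direction). There the arrays of H2-Eb1 and Cd74 did not overlap, as was so for 15.5% of all genes in this direction. A change was called at an adjusted p under 0.05 in limma, with Benjamini-Hochberg adjustment over all 18193 genes and 1 probe set, the brightest, per gene. The comparisons of Gnaq/Gna11 and of Gna12 cells use the same 3 Gna11 arrays, so their rises are not independent of each other.

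Other measures also set the Gna11 arrays apart. The mean of 20 pan-leukocyte genes lay at 7.84 to 8.41 on the Gna11 arrays, 8.84 to 8.91 on those of Gnaq/Gna11, 8.95 to 9.56 on those of Gna12 and 8.49 to 9.35 on those of Gna12/Gna13 cells. The gap between the 3′ and 5′ control probe sets of Gapdh, which widens as RNA shortens, was 3.46 to 4.03 in Gna11 arrays and 2.67 to 3.33 in all others. Sftpc, the surfactant protein C gene that defines type II cells, was between 12.8 and 13.4 in all 12 arrays. Each targeted gene had 1 probe set lower in its knockout arrays than in every other array, of 2 for Gna11, 5 for Gna12, 7 for Gna13 and 7 for Gnaq. In a bulk sample, fewer cells of a type and less RNA per cell cannot be told apart.

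**Figure D1:**
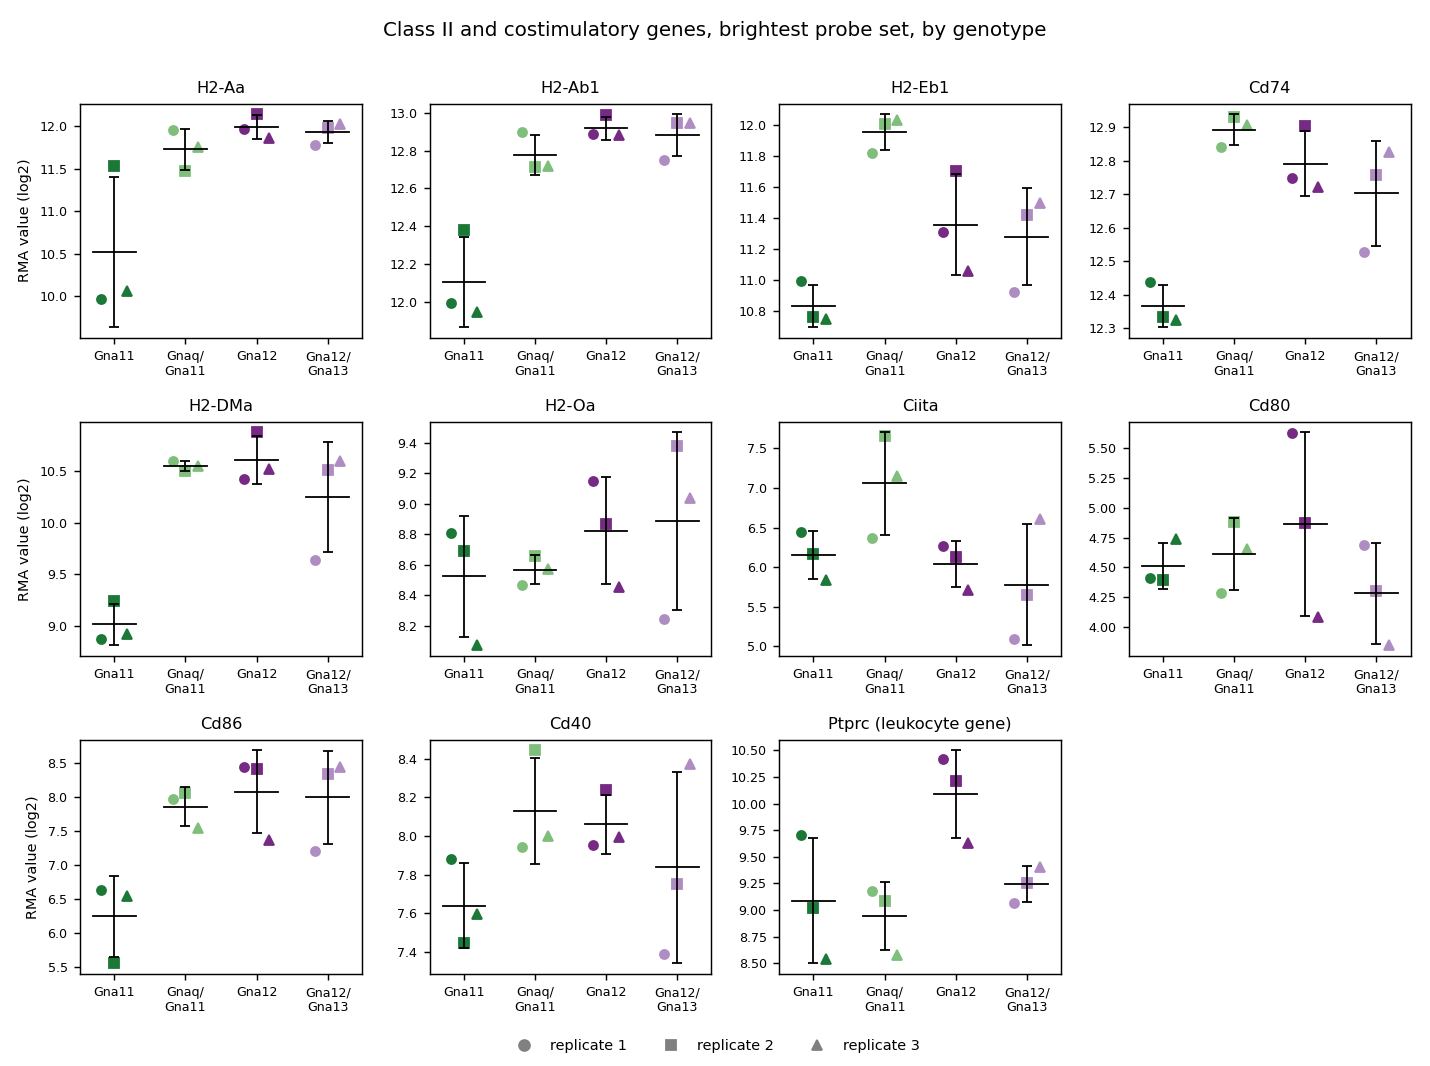
RMA values (log2, vertical axis) of the brightest probe set of each of the 10 genes and of Ptprc in the 4 genotypes. Points are arrays, with 1 shape per replicate, long lines are group means and whiskers are ± 1 SD (n = 3). The Gna11 arrays lie below the others for H2-Ab1, Cd74, H2-DMa and Cd86, while H2-Oa, Ciita, Cd80 and Cd40 overlap across most groups.

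H2-Aa, the alpha chain of the I-A molecule, was at 9.96, 11.54 and 10.06 in replicates 1, 2 and 3 of Gna11 cells. It was at 11.96, 11.47 and 11.75 in Gnaq/Gna11 cells, at 11.97, 12.14 and 11.86 in Gna12 cells, and at 11.78, 11.97 and 12.03 in Gna12/Gna13 cells. Replicate 2 of the Gna11 cells therefore lay among the other genotypes, while replicates 1 and 3 lay below all other arrays. Replicate 2 was also the Gna11 array with low Eif2s3y, whose part in this value was not tested. The difference from Gna11 was 1.47 ± 0.327 (SE) in Gna12 cells (limma adjusted p = 0.0406), a call lost in 10 of the 12 fits that each left out 1 array (limma adjusted p up to 0.148, without Gna12 replicate 2) and kept without Gna11 replicate 2 and without Gna12/Gna13 replicate 1. It was 1.21 ± 0.327 in Gnaq/Gna11 cells and did not pass (limma adjusted p = 0.0951), but without Gna11 replicate 2 it was 1.72 and passed (limma adjusted p = 0.00125).

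H2-Ab1, the beta chain that pairs with H2-Aa, was at 11.99, 12.38 and 11.94 in Gna11 cells, 12.90, 12.71 and 12.72 in Gnaq/Gna11 cells, 12.89, 12.99 and 12.88 in Gna12 cells, and 12.75, 12.94 and 12.95 in Gna12/Gna13 cells. All 3 Gna11 arrays lay below the 9 others, and those 9 overlapped across genotypes. It rose by 0.67 ± 0.105 (1.59-fold) in Gnaq/Gna11 cells (limma adjusted p = 0.0132) and by 0.82 ± 0.105 (1.76-fold) in Gna12 cells (limma adjusted p = 0.00505), and both calls were kept in all 12 fits that left out 1 array.

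H2-Eb1, the beta chain of the I-E molecule, had another order. Its values were 10.99, 10.76 and 10.75 in Gna11 cells, 11.82, 12.01 and 12.04 in Gnaq/Gna11 cells, 11.31, 11.70 and 11.06 in Gna12 cells, and 10.92, 11.42 and 11.50 in Gna12/Gna13 cells. The Gnaq/Gna11 arrays lay above all others, and the remaining groups formed a lower range in which the Gna11 and Gna12/Gna13 arrays overlapped. H2-Eb1 rose by 1.12 ± 0.176 (2.17-fold) from Gna11 to Gnaq/Gna11 cells (limma adjusted p = 0.0141), a call lost without Gnaq/Gna11 replicate 2 or 3 (limma adjusted p = 0.0550 and 0.0561). It was at 0.52 ± 0.176 above Gna11 in Gna12 cells, which did not pass (limma adjusted p = 0.127). It was lower by -0.67 ± 0.176 in Gna12/Gna13 than in Gnaq/Gna11 cells (limma adjusted p = 0.0473). This last call was lost without an intensity trend in the model and in 9 of the 12 fits that each left out 1 array. H2-Ea, which encodes the alpha chain of I-E and is silent in some laboratory haplotypes, had group means of 4.88 to 5.43, near the median of all probe sets, 5.101.

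H2-Aa and H2-Ab1 are each read by several probe sets, and these did not behave alike, while H2-Eb1 has 1. For H2-Aa, the probe set 1452431_s_at was at 8.50, 8.52 and 8.44 in Gna11 cells and at 9.78, 9.84 and 9.94 in Gnaq/Gna11 cells. Here replicate 2 of the Gna11 cells did not stand apart, and the difference of 1.37 ± 0.211 passed in the fit across 45037 probe sets (limma adjusted p = 0.0211). The probe set 1438858_x_at of the same gene was at 10.00, 10.51 and 10.05 in Gna11 cells and at 10.61, 10.03 and 9.93 in Gnaq/Gna11 cells, a difference of 0.01 ± 0.190 with full overlap. The fourth, 1443783_x_at, was dim, with group means of 2.76 to 3.37. Affymetrix marks with x sets whose probes can match unrelated transcripts and with s sets shared by related ones. The brightest sets, used for the gene values above, carry such marks too: 1435290_x_at for H2-Aa and 1450648_s_at for H2-Ab1. For H2-Ab1, the 2 dimmer probe sets differed more than the brightest one. From Gna11 to Gnaq/Gna11 cells 1451721_a_at rose by 1.95 ± 0.283 and 1425477_x_at by 1.72 ± 0.242 (limma adjusted p = 0.0149 and 0.0132), and in Gna12 cells they were at 1.25 ± 0.283 and 0.99 ± 0.242 above Gna11 without passing (limma adjusted p = 0.0587 and 0.0718). Both H2-DMa probe sets rose in both comparisons. In all, 8 of the 24 probe sets rose from Gna11 to Gnaq/Gna11 cells (0.759% of all probe sets changed), 4 rose in Gna12 cells (1.30% changed), and none passed between Gna12 and Gna12/Gna13 cells (0% changed) or between the double knockouts (2.87% changed). Of the 24, 18 lay at or above the median of all probe sets.

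**Figure D2:**
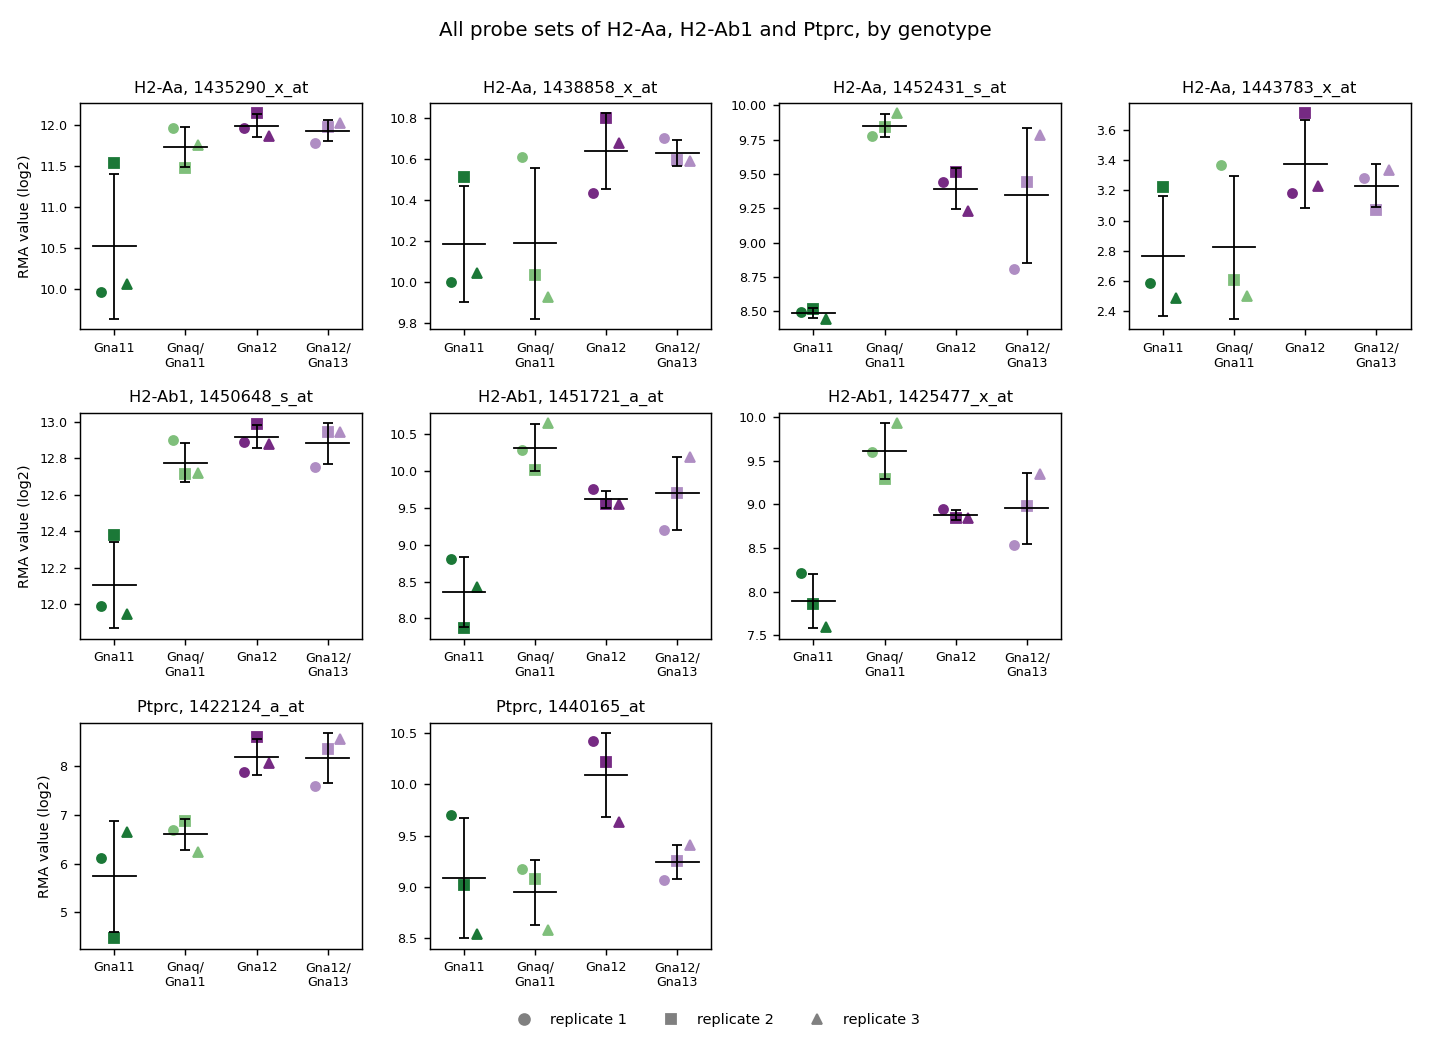
RMA values (log2, vertical axis) of every probe set of H2-Aa, H2-Ab1 and Ptprc by genotype. Points are arrays, lines are means and whiskers ± 1 SD (n = 3). Replicate 2 of the Gna11 cells is high on 3 of the 4 H2-Aa probe sets and level with its group on 1452431_s_at, and the 2 Ptprc probe sets order the genotypes differently.

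Among the chaperone and loading genes, Cd74 and H2-DMa rose in both comparisons with Gna11 cells and H2-Oa in neither. Cd74 was at 12.44, 12.34 and 12.33 in Gna11 cells, 12.84, 12.93 and 12.91 in Gnaq/Gna11 cells, 12.75, 12.90 and 12.72 in Gna12 cells, and 12.53, 12.76 and 12.83 in Gna12/Gna13 cells. Its arrays were tightly grouped and the Gna11 arrays lay below all others. It rose by 0.53 ± 0.0753 (1.44-fold) in Gnaq/Gna11 cells (limma adjusted p = 0.00844) and by 0.42 ± 0.0753 (1.34-fold) in Gna12 cells (limma adjusted p = 0.0197). The second call was lost without Gna11 replicate 2, Gna12 replicate 1 or Gna12 replicate 2 (limma adjusted p = 0.0533, 0.0527 and 0.0892). The Gna12/Gna13 arrays lay below the Gnaq/Gna11 arrays, by -0.19 ± 0.0753, which did not pass (limma adjusted p = 0.174).

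H2-DMa, the alpha chain of the peptide exchanger H2-DM, was at 8.88, 9.24 and 8.92 in Gna11 cells, 10.60, 10.50 and 10.56 in Gnaq/Gna11 cells, 10.43, 10.88 and 10.53 in Gna12 cells, and 9.64, 10.51 and 10.60 in Gna12/Gna13 cells. The Gna11 arrays were again the lowest, and replicate 1 of the Gna12/Gna13 cells lay between them and the rest. H2-DMa rose by 1.54 ± 0.232 (2.91-fold) in Gnaq/Gna11 cells (limma adjusted p = 0.0108) and by 1.60 ± 0.232 (3.03-fold) in Gna12 cells (limma adjusted p = 0.0086), the latter lost without Gna12 replicate 2 (limma adjusted p = 0.0529). Its RefSeq windows do not hold the X and Y pair searched above, which says only that these letters are not there.

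H2-Oa, the alpha chain of the modulator H2-O, was at 8.81, 8.69 and 8.07 in Gna11 cells, 8.47, 8.66 and 8.57 in Gnaq/Gna11 cells, 9.15, 8.87 and 8.45 in Gna12 cells, and 8.24, 9.38 and 9.04 in Gna12/Gna13 cells. All groups overlapped. Its difference from Gna11 was 0.04 in Gnaq/Gna11 cells (95% interval -0.62 to 0.71) and 0.30 in Gna12 cells (-0.37 to 0.97). Of the 5 genes found to carry the X and Y pair, H2-Eb1 and H2-Eb2 rose in Gnaq/Gna11 cells, and H2-Oa, H2-Aa and H2-Ob were not called, the last at 1.10 ± 0.359 (limma adjusted p = 0.161).

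Ciita, the coactivator of class II transcription, did not pass in any comparison with all arrays in the fit. It was at 6.45, 6.17 and 5.84 in Gna11 cells, 6.37, 7.65 and 7.15 in Gnaq/Gna11 cells, 6.27, 6.13 and 5.71 in Gna12 cells, and 5.09, 5.64 and 6.61 in Gna12/Gna13 cells. Replicates 2 and 3 of the Gnaq/Gna11 cells were the highest 2 arrays, and every neighbouring pair of groups overlapped. Ciita was at 0.91 ± 0.395 above Gna11 in Gnaq/Gna11 cells (limma adjusted p = 0.286) and at -0.11 ± 0.395 in Gna12 cells (limma adjusted p = 0.894, 95% interval -0.98 to 0.75). It was at -1.28 ± 0.395 in Gna12/Gna13 against Gnaq/Gna11 cells (limma adjusted p = 0.0859), and passed there without Gnaq/Gna11 replicate 1 or Gna12/Gna13 replicate 3 (limma adjusted p = 0.0487 and 0.0281). The other 2 Ciita probe sets, with group means of 5.52 to 5.82 and 4.31 to 4.86, passed in no comparison.

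Of the costimulatory genes, Cd86 was low in Gna11 cells and Cd80 was dim everywhere. Cd86 was at 6.63, 5.55 and 6.54 in Gna11 cells, 7.97, 8.06 and 7.54 in Gnaq/Gna11 cells, 8.44, 8.41 and 7.37 in Gna12 cells, and 7.21, 8.33 and 8.43 in Gna12/Gna13 cells. All 3 Gna11 arrays lay below the 9 others. It rose by 1.83 ± 0.414 (3.55-fold) in Gna12 cells (limma adjusted p = 0.0424), a call lost in 9 of the 12 fits that left out 1 array (limma adjusted p up to 0.157, without Gna12 replicate 2), and was 1.61 ± 0.414 above Gna11 in Gnaq/Gna11 cells, which did not pass (limma adjusted p = 0.0799). Its second probe set was also lowest in Gna11 cells, with differences of 1.15 ± 0.361 and 0.85 ± 0.361 that did not pass.

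Cd40 was at 7.88, 7.45 and 7.59 in Gna11 cells, 7.94, 8.44 and 8.002 in Gnaq/Gna11 cells, 7.95, 8.24 and 7.99 in Gna12 cells, and 7.39, 7.75 and 8.37 in Gna12/Gna13 cells. The Gna11 arrays lay just below the Gnaq/Gna11 and Gna12 arrays, by 0.49 ± 0.258 and 0.42 ± 0.258, and neither difference passed (limma adjusted p = 0.385 and 0.378). The group means of the brightest Cd80 probe set ran from 4.28 to 4.86, below the median of all probe sets, with overlap between all groups. The probe set 1451950_a_at of Cd80 was at 3.86, 3.43 and 4.21 in Gna11 cells and at 6.03, 4.81 and 4.23 in Gnaq/Gna11 cells. These arrays did not overlap, but the difference of 1.19 ± 0.420 did not pass (limma adjusted p = 0.250), nor did that of -1.10 ± 0.420 between the double knockouts (limma adjusted p = 0.202). No Cd80 probe set passed in any comparison.

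Ciita and Cd80 were the 2 genes whose lowest group mean was in Gna12/Gna13 and not in Gna11 cells. Among the 3 higher genotypes, neighbours in the order overlapped on the brightest probe set for all 10 genes except H2-Eb1. There Gnaq/Gna11 stood above Gna12. For Ciita, where the Gna11 mean lay between them, the Gnaq/Gna11 arrays (from 6.37) also lay above those of Gna12 (up to 6.27). On some dimmer probe sets the Gnaq/Gna11 arrays also lay above those of Gna12. These were 1452431_s_at of H2-Aa (from 9.78, against up to 9.51), 1451721_a_at (10.01, 9.75) and 1425477_x_at (9.29, 8.95) of H2-Ab1, and 1432826_a_at of Cd80. On 1439221_s_at of Cd40 the Gna12 arrays lay above those of Gnaq/Gna11. The share of all genes without overlap between Gnaq/Gna11 and Gna12 was not counted.

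**Figure D3:**
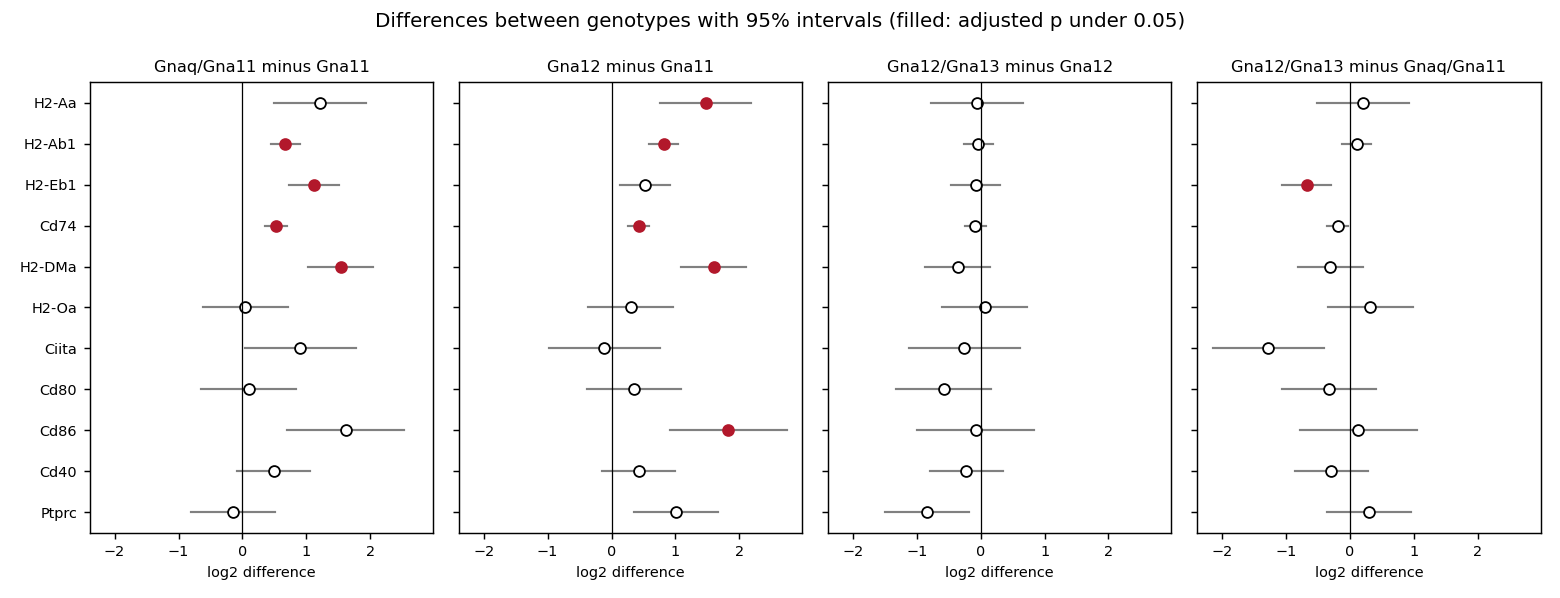
Log2 differences (horizontal axis) of the 10 genes and Ptprc in 4 comparisons, with 95% intervals from the limma model (n = 3 arrays per group). Filled points passed at an adjusted p under 0.05: 4 genes in Gnaq/Gna11 minus Gna11, 5 in Gna12 minus Gna11, none in Gna12/Gna13 minus Gna12, and H2-Eb1 in Gna12/Gna13 minus Gnaq/Gna11.

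From Gna11 to Gnaq/Gna11 cells, 7 of the 10 genes had an unadjusted p under 0.05 (16.2% of all genes), and all 10 differences were above 0, with a median of 0.79 against -0.03 over all genes. The arrays did not overlap for 6 of them (9.87% of all genes did not overlap in this direction): the 4 called genes, Cd86 and Cd40. Eif2s3y was low on all 3 Gnaq/Gna11 arrays and on replicate 2 alone of the Gna11 arrays. With Eif2s3y as a covariate the same 4 genes passed, and 237 of all genes did.

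From Gna11 to Gna12 cells, 6 of the 10 genes had an unadjusted p under 0.05 (20.9% of all genes). Of the 10 differences, 9 were above 0, with a median of 0.47 against -0.06 over all genes, and 7 had no overlap (10.3% of all genes in this direction). In this comparison, and between the double knockouts, the labels' position code has the number 2 where Gna11 is lacking and 4 where Gna12 is lacking. What the code stands for is not explained there, and it cannot be told apart from genotype.

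Loss of Gna13 on top of Gna12 came with no called difference in these genes. In Gna12/Gna13 minus Gna12, the 10 differences lay between -0.58 and 0.06, with a median of -0.08, and the arrays of both groups overlapped for each of them (11.3% of all genes did not overlap). No gene of 18193 passed in limma in this comparison, and 820 had an unadjusted p under 0.05 (4.51%), of which none was among the 10. The intervals were narrow for the bright genes: -0.27 to 0.19 for H2-Ab1 and -0.25 to 0.08 for Cd74. They were wide for H2-Aa (-0.78 to 0.66) and Cd86 (-0.99 to 0.83), so differences of that size were not detectable with 3 arrays.

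Whether losing the second subunit acted differently in the 2 families was asked with the difference of the double minus single differences. None of the 10 passed (13 genes, 0.0715% of all, did), and 6 had an unadjusted p under 0.05, as did 10.8% of all genes. The value was -0.61 ± 0.107 for Cd74 and -1.90 ± 0.328 for H2-DMa (limma adjusted p = 0.0612 for both). It was -0.71 ± 0.148 for H2-Ab1 and -1.20 ± 0.250 for H2-Eb1 (limma adjusted p = 0.101 for both). Without Gna11 replicate 2, H2-Aa and H2-Ab1 passed at -1.78 and -0.85, and without Gna12/Gna13 replicate 3 Cd74 and H2-DMa passed at -0.68 and -2.08. A rise from Gna11 to Gnaq/Gna11 cells that was not seen from Gna12 to Gna12/Gna13 cells is therefore not shown to differ between the families for any of the 10 in the fit of all genes. With genes under the median level left out of the test, Cd74 and H2-DMa passed (limma adjusted p = 0.0449 for both).

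Other genes of the pathway were read from a list of 14. From Gna11 to Gnaq/Gna11 cells 4 rose and none fell, with a median of 0.57 over the list. H2-Eb2 rose by 1.54 ± 0.276, H2-DMb2, a beta chain of H2-DM, by 1.37 ± 0.258, and the endosomal proteases Ctsd and Ctsb by 0.91 ± 0.173 and 0.21 ± 0.0368 (limma adjusted p from 0.0197 to 0.028). In Gna12 cells 3 rose: Ctss, the protease that trims the invariant chain, by 1.11 ± 0.255, Ctsd by 0.81 ± 0.173 and Ctsb by 0.20 ± 0.0368 (limma adjusted p from 0.0216 to 0.0452). Between the double knockouts H2-Ea was lower in Gna12/Gna13 cells, by -0.56 ± 0.146 (limma adjusted p = 0.0469), at the low level given above. In the fit across all probe sets this one, 1422891_at, did not pass (limma adjusted p = 0.0752). Nor did 1422892_s_at and 1426202_at of H2-Ea, at -0.15 and -0.05 (limma adjusted p = 0.595 and 0.809). In Gna12/Gna13 minus Gna12 none of the 14 passed, nor in the difference of differences.

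Few regulators of class II transcription passed. None of 17 (RFX and NF-Y subunits, interferon gamma receptor, Jak and Irf genes, Prdm1 and Socs1 among them) passed from Gna11 to Gnaq/Gna11 cells, where 3 had an unadjusted p under 0.05 (16.2% of all genes), and the list median was 0.06. In Gna12 cells Prdm1, a repressor of Ciita, rose by 0.94 ± 0.153 (limma adjusted p = 0.0142), and Irf2 was lower by -0.30 ± 0.0628 (limma adjusted p = 0.0355) at a level under the median of all probe sets. Prdm1 was also higher in Gna12/Gna13 than in Gnaq/Gna11 cells, by 0.69 ± 0.153 (limma adjusted p = 0.0257). Of 15 other costimulation and Cd40 signalling genes, none passed in either comparison with Gna11 cells (1 and 3 at an unadjusted p under 0.05, as were 16.2% and 20.9% of all genes), and Nfkb2, a target of Cd40 signalling, was lower in Gna12/Gna13 than in Gnaq/Gna11 cells by -0.69 ± 0.174 (limma adjusted p = 0.0428).

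Against Ptprc, the pan-leukocyte phosphatase CD45, the class II genes gave different pictures by probe set. The brightest Ptprc probe set was at 9.71, 9.02 and 8.54 in Gna11 cells, 9.18, 9.08 and 8.58 in Gnaq/Gna11 cells, 10.42, 10.22 and 9.63 in Gna12 cells, and 9.07, 9.26 and 9.41 in Gna12/Gna13 cells. On it, Gna11 and Gnaq/Gna11 cells overlapped, with a difference of -0.14 ± 0.299 (limma adjusted p = 0.864). The second probe set was at 6.12, 4.47 and 6.65 in Gna11 cells, 6.69, 6.88 and 6.24 in Gnaq/Gna11 cells, 7.89, 8.61 and 8.07 in Gna12 cells, and 7.60, 8.36 and 8.56 in Gna12/Gna13 cells. On this one the 6 arrays that lack Gna12 lay above the 6 that lack Gna11, and the rise from Gna11 to Gna12 cells was 2.44 ± 0.484 (limma adjusted p = 0.0418 over all probe sets). From Gna11 to Gnaq/Gna11 cells the second probe set differed by 0.86 ± 0.484 (limma adjusted p = 0.477) with overlap. This did not pass but was larger than the rises of Cd74 and of the brightest H2-Ab1 probe set. It was smaller than those of the 2 dimmer H2-Ab1 probe sets, 1.95 and 1.72.

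Calls in the wider leukocyte lists were uneven in that comparison. Of 20 pan-leukocyte genes, 19 differences were above 0, with a median of 0.67, and 1 passed, the integrin chain Itgb2, at 1.51 ± 0.309 (limma adjusted p = 0.0375). In Gna12 minus Gna11 all 20 were above 0, with a median of 1.17, and 6 rose, among them Lcp1 by 2.21 ± 0.458, Cd53 by 2.09 ± 0.417, Vav1 by 2.09 ± 0.370 and Itgb2 by 1.88 ± 0.309 (limma adjusted p from 0.0142 to 0.0336). Of 13 dendritic cell markers, 4 rose in Gnaq/Gna11 and 3 in Gna12 cells, with medians of 0.55 and 0.41. The chemokines Ccl22 and Ccl17 and the receptor Ccr7, which mark mature dendritic cells, rose by 3.01 ± 0.301, 2.23 ± 0.158 and 3.19 ± 0.321 in Gnaq/Gna11 cells (limma adjusted p from 0.000332 to 0.0016). The fourth was Fscn1, an actin-bundling protein of mature dendritic cells, which rose by 4.40 ± 0.828 (limma adjusted p = 0.0275) from 7.56, 3.21 and 6.20 in Gna11 to 10.01, 10.28 and 9.87 in Gnaq/Gna11 cells. Cd209a, Ly75 and Xcr1 of that list stayed below the median of all probe sets in every group mean. Ccr7, Ccl22 and Ccl17 were also the members of this list called in the difference of differences, Ccr7 at -3.17 ± 0.453, Ccl22 at -3.08 ± 0.426 and Ccl17 at -2.30 ± 0.224 (limma adjusted p from 0.00886 to 0.0413).

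Some macrophage and B cell genes also differed. Of 15 macrophage and monocyte markers, 5 rose in Gnaq/Gna11 and 2 in Gna12 cells, with medians of 1.57 and 1.47. In Gnaq/Gna11 cells the complement gene C1qc rose by 3.22 ± 0.680, Adgre1 by 1.88 ± 0.402, the scavenger receptor Msr1 by 1.85 ± 0.301 and C1qb by 1.79 ± 0.373 (limma adjusted p from 0.0157 to 0.0424). In Gna12 cells Cd14 rose by 1.71 ± 0.395 and Cd68 by 1.47 ± 0.346 (limma adjusted p = 0.0462 and 0.0489). The mean of the 15 lay at 7.61 to 8.31 on the Gna11 arrays, 9.22 to 9.27 on those of Gnaq/Gna11, 8.93 to 9.56 on those of Gna12 and 8.39 to 9.71 on those of Gna12/Gna13 cells. Of 9 B cell markers, Ighm rose in both comparisons, by 4.64 ± 0.879 and 5.04 ± 0.879 (limma adjusted p = 0.028 and 0.0183), and Fcer2a in Gnaq/Gna11 cells by 2.70 ± 0.314 (limma adjusted p = 0.00332). The list medians were 0.06 and 0.07, with 5 of the 9 differences above 0 in each comparison. Pax5 and Cr2 were below the median of all probe sets in every group mean. The brighter Cd79a and Cd79b had means of 8.56 and 9.95 in Gna11 cells. Their means were lower in Gnaq/Gna11 cells (8.10 and 9.85) and in Gna12 cells (8.27 and 9.32), and neither gene passed. Of 9 T and NK cell markers none passed in Gnaq/Gna11 minus Gna11 (4 at an unadjusted p under 0.05), and Cd2 rose in Gna12 cells by 1.65 ± 0.348 (limma adjusted p = 0.0355). Of 13 type II markers none passed in Gnaq/Gna11 minus Gna11 (5 at an unadjusted p under 0.05), Slc34a2 was lower in Gna12 cells by -0.85 ± 0.200 (limma adjusted p = 0.048), and 6 were lower in Gna12/Gna13 than in Gnaq/Gna11 cells, where H2-Eb1 was lower too, among them Slc34a2 by -1.60 ± 0.200 and Abca3 by -0.91 ± 0.154 (limma adjusted p = 0.00206 and 0.00774). Of 13 general epithelial markers none passed in either comparison with Gna11 cells (2 and 1 at an unadjusted p under 0.05).

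**Figure D4:**
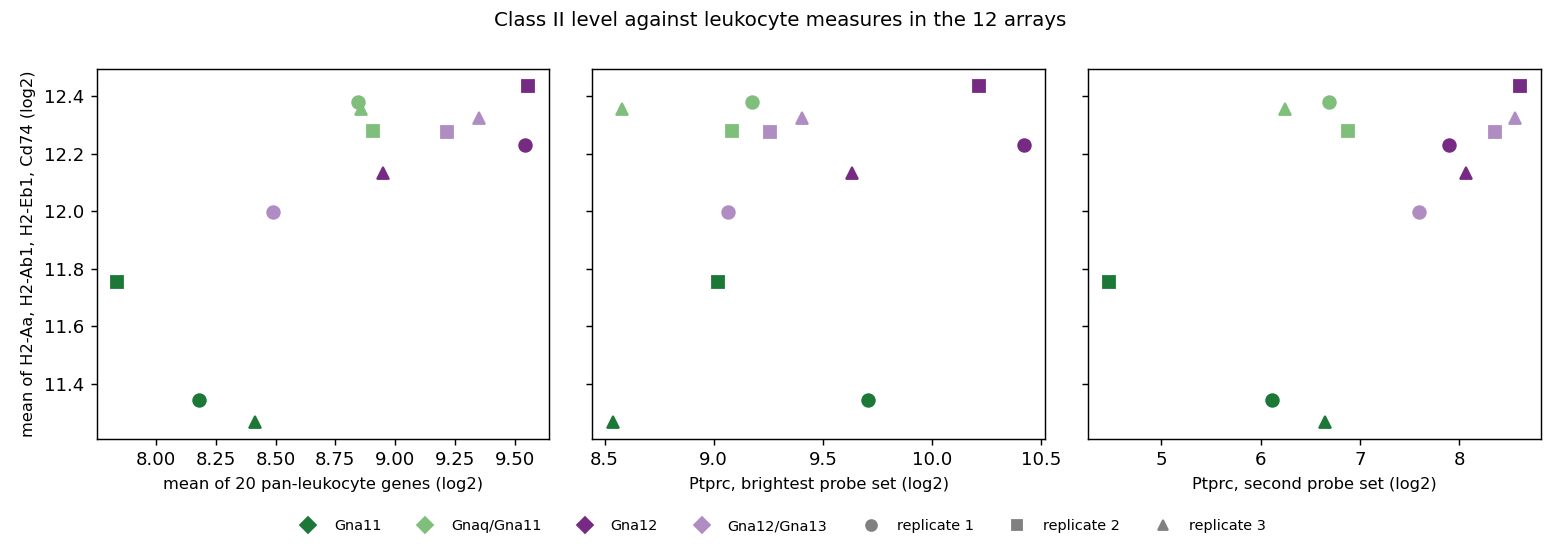
Mean of H2-Aa, H2-Ab1, H2-Eb1 and Cd74 (log2, vertical axis) in the 12 arrays against the mean of 20 pan-leukocyte genes and the 2 Ptprc probe sets (log2, horizontal axes). Colours are genotypes and shapes replicates. The Gna11 arrays are lowest on the vertical axis, at 11.3 to 11.8, below all 9 others, and low on the pan-leukocyte mean, while on the brightest Ptprc probe set they overlap with arrays of all 3 other genotypes.

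With the brightest Ptprc probe set as a covariate, the same 4 genes passed in Gnaq/Gna11 minus Gna11, and 245 of all genes did. The differences were 0.68 for H2-Ab1, 1.16 for H2-Eb1, 0.54 for Cd74 and 1.55 for H2-DMa. With the second Ptprc probe set H2-Aa (1.63), H2-Ab1 (0.76) and Cd74 (0.46) passed (limma adjusted p = 0.0388, 0.0219 and 0.0400). H2-Eb1 (0.99) and H2-DMa (1.47) then did not pass (limma adjusted p = 0.0633 and 0.0513), and 86 of all genes did. With the mean of the 20 pan-leukocyte genes in its place none passed. The differences were then 0.68 for H2-Ab1 (limma adjusted p = 0.208), 0.71 for H2-Eb1 (0.286), 0.36 for Cd74 (0.204), 1.16 for H2-DMa (0.286) and 1.45 for H2-Aa (0.427). The difference of Cd86 was 0.43 in place of 1.61. In Gna12 minus Gna11 none of the 5 calls was kept with any of these covariates. Of all genes 12 passed with the brightest Ptprc probe set and 0 with each of the others, against 513 without a covariate. With the brightest Ptprc probe set the differences were 1.502 for H2-Aa, 0.74 for H2-Ab1, 1.49 for H2-DMa, 0.31 for Cd74 and 1.05 for Cd86 (limma adjusted p from 0.0971 to 0.357), so H2-Aa, H2-Ab1 and H2-DMa kept about their size. With the pan-leukocyte mean H2-Ab1 was at 0.83 and H2-Aa at 1.87, while Cd74 was at 0.15, H2-Eb1 at -0.17 and Cd86 at -0.13. With the Gapdh gap as a covariate none passed in either comparison, and H2-DMa was at 1.10 and 1.05. The pan-leukocyte mean and the Gapdh gap both separate Gna11 from the other genotypes, so their part in the differences and that of genotype cannot be told apart in these fits.

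Set relative to the pan-leukocyte mean of the same array, the genes divided. For H2-DMa this ratio was 0.87 ± 0.474 (SD, n = 3) in Gna11 and 1.68 ± 0.0797 in Gnaq/Gna11 cells on the log2 scale, and for H2-Eb1 2.69 ± 0.313 and 3.08 ± 0.100, in both cases with no overlap. For H2-Ab1 it was 3.96 ± 0.521 and 3.91 ± 0.133, and for Cd74 4.22 ± 0.293 and 4.02 ± 0.0247, with overlap. In Gna12 cells the ratio lay below every Gna11 array for 6 genes, Cd74, H2-Eb1, H2-Oa, Ciita, Cd80 and Cd40, and overlapped for 4. There it was 3.44 ± 0.297 for Cd74 and 2.01 ± 0.210 for H2-Eb1. These ratios were chosen after the levels were known and were not tested, and the share of all genes without overlap was not counted for them.

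Within a genotype, the slopes of the 10 genes on leukocyte signal were mostly above 0 and none was called. On Ptprc 9 of the 10 were above 0, with a median of 0.23 against 0.02 over all genes, and on the pan-leukocyte mean 8 of the 10, with a median of 0.55 against -0.01. No gene of 18192 had a called slope on Ptprc in limma, and 1113 had an unadjusted p under 0.05 (6.12%), of which 1 was among the 10. The smallest adjusted p there was 0.602, so the lack of a call among the 10 says little. On the pan-leukocyte mean 6 genes passed (0.0330%), none among the 10, and 3 of the 10 had an unadjusted p under 0.05 (6.42% of all genes), Cd86, H2-Eb1 and Cd74. Cd86 changed by 1.63 ± 0.276 per unit of that mean (limma adjusted p = 0.162), H2-Eb1 by 0.57 ± 0.169 (0.487) and Cd74 by 0.23 ± 0.0769 (0.568). H2-Ab1 was at -0.01 ± 0.146 and H2-Aa at -0.33 ± 0.445. Each slope rests on the spread of 3 arrays within each of 4 genotypes.

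Genes outside the 10 were ranked by Pearson correlation over the 12 arrays with the mean of H2-Aa, H2-Ab1, H2-Eb1 and Cd74. The 11425 candidates had a mean that reached the median of all probe sets. The 10 genes and clone, predicted or RIKEN names were left out. Among these candidates Ccl22 led with r = 0.955, followed by Dpp3 (0.932), Basp1 (0.932), Letmd1 (0.925), Eif1ad (0.920), H2-Q5 (0.915), Fn1 (0.913), Ccl17 (0.913), Vipas39 (0.909) and C1qb (0.908). Of the 10 genes left out, H2-DMa, which is not part of the mean, had r = 0.966. The 12 arrays share 4 genotypes, and the low Gna11 arrays weigh in every one of these values. Ccl22 was at 6.15 ± 0.281 (SD, n = 3) in Gna11 cells and at 9.16 ± 0.172, 8.90 ± 0.407 and 8.83 ± 0.572 in Gnaq/Gna11, Gna12 and Gna12/Gna13 cells. Basp1 was at 9.61 ± 0.0386 in Gna11 cells and at 11.0 ± 0.113, 10.9 ± 0.366 and 11.0 ± 0.249 in the others.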

How the data were processed

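The 12 arrays are Affymetrix whole-genome mouse arrays hybridised with RNA amplified from 10 ng of total RNA, per the labels. The deposited values are RMA summaries per probe set, per the submitters' processing notes, read as log2 values because RMA gives them so. RMA corrects background, normalizes between arrays and compresses small and large signals. The sources used here do not give the log base, software version or genome build.

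Of 45101 probe sets, 64 were controls, 34945 had 1 gene in the platform annotation, 932 several and 9160 none. Symbols were updated through RefSeq GRCm38.p6 for 34741 probe sets and kept for 204. Each gene was represented by its brightest probe set, giving 18193 genes, of which 9010 had several.

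A model with 1 mean per genotype was fitted with limma 3.58.1 in R 4.3.3 (eBayes with an intensity trend; 3.19 prior and 8 residual degrees of freedom), two-sided, and tested on simulated data. The same model was fitted to 45037 probe sets, and with a leukocyte covariate for slopes. Alternatives changed the probe set rule, filter, trend, weights, covariates, replicate block, normalization and arrays used. Array medians were 5.03 to 5.11, the lowest correlation within a group was 0.963, and 0 pairs of arrays were identical. The number of arrays limits precision.

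Named genes are the 10 members, Ptprc, up to 4 called genes with the largest differences per list and comparison, the 10 most alike genes, and Sftpc and H2-Ea as level checks. Markers named for staying below the median, and Cd79a and Cd79b, were added after their values were seen. Of 150 list entries 138 were measured, and the other 12 were not analysed here. The members and lists were chosen with earlier results of these data known. Same-numbered replicates did not deviate together in every pair (r from -0.014 to 0.271), so numbers were not taken as pairs. The largest values were those of replicates 2 and 3, in Gna12/Gna13 against Gna12 cells (0.271 and 0.196) and in Gna12 against Gna11 cells (0.198 and 0.142). Replicate 2 was also the array with low Eif2s3y in each of these groups. Whether the numbers mark a shared source there was not tested beyond the replicate block.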

Additional observations from a re-analysis of the deposited data

Results flagged for a closer look

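Of the genes described, 3 dendritic cell markers had an effect of the second knockout that differed between the 2 families by a test of that difference, none of them among the 10. For the chemokine Ccl17 the difference of differences was -2.30 ± 0.224, for the chemokine Ccl22 -3.08 ± 0.426 and for the receptor Ccr7 -3.17 ± 0.453 (limma adjusted p = 0.00886, 0.0398 and 0.0413). All 3 were lowest in Gna11 cells, where Ccl17 was at 10.64, 10.91 and 11.25, and they differed by -0.07, -0.07 and 0.03 between Gna12/Gna13 and Gna12 cells. The cause was not tested.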

How the results depend on the processing

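In Gnaq/Gna11 minus Gna11, where 4 of the 10 genes were called, 0 were called with the pan-leukocyte mean or the Gapdh difference as a covariate, and 3 to 5 when 1 array was left out in turn. In Gna12 minus Gna11, with 5 called, 3 were called with the mean of the probe sets, without an intensity trend and with a replicate block. It was 1 with only the arrays compared, 0 with the pan-leukocyte mean, Ptprc, its second probe set (added after seeing the data) or the Gapdh difference as a covariate, and 1 to 5 with 1 array left out, the 1 being without Gna12 replicate 2. There Cd86 turned to -0.13 with the pan-leukocyte mean. In Gna12/Gna13 minus Gnaq/Gna11, with 1 called, 2 were called with the mean of the probe sets and 0 without an intensity trend, with Eif2s3y or the second Ptprc probe set as a covariate, with a replicate block and with only the arrays compared, and 0 to 2 with 1 array left out. In the difference of differences, with 0 called, 2 were called when genes under the median level were left out, and 0 to 2 with 1 array left out, the 2 being without Gna11 replicate 2 or Gna12/Gna13 replicate 3. Gna12/Gna13 minus Gna12 and the slopes on Ptprc gave 0 of the 10 in every setting run. With probe sets at or above the median level, 9 in place of 4 probe sets of the 10 genes were called in Gna12 minus Gna11 and 1 in place of 0 in Gna12/Gna13 minus Gnaq/Gna11. The replicate block changed no other count of the 10. Over all genes, calls ranged from 3 to 395 in Gnaq/Gna11 minus Gna11 (335 in the reported fit), 0 to 723 in Gna12 minus Gna11 (513) and 364 to 1640 in Gna12/Gna13 minus Gnaq/Gna11 (1109) across settings that kept all arrays or the groups compared. In the difference of differences they ranged from 0 to 37 across such settings (13 in the reported fit), and from 0 to 40 with 1 array left out. Array weights and quantile normalization moved none of the counts of the 10 by over 1.5 times. The search of 250 bases before the start alone found the same 3 genes. Apart from settings that test fewer genes or use fewer arrays, the cause was not tested. Genes under the median level, Cd80 above all, carry little signal over background.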
